A study of Mus musculus with 6 samples.

Results

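The comparison described here was between Cdk6-/- and wild-type hematopoietic stem cells (HSCs) that had been treated with polyI:C, a synthetic analogue of viral double-stranded RNA. Its members were the 3 arrays, of 6 in the series, labelled as polyI:C-treated HSCs. On each array the Cy5 channel carried 1 Cdk6-/- sample of treated cells, and the Cy3 channel carried a pool of sorted wild-type HSCs that had also been treated. All cells came from mouse bone marrow. The other 3 arrays carried untreated Cdk6-/- HSCs against a pool of untreated wild-type HSCs and are given beside the treated ones. The series describes the 3 samples of a treatment as biological replicates. The wild-type pool was hybridised 3 times, so it stands for 1 control sample, and the tests leave out the spread between wild-type mice. No array had its dyes swapped, so a dye bias of a probe cannot be told apart from a difference between the genotypes. The strain, age and number of mice, the dose and timing of polyI:C, the gate of the sort and the construction of the Cdk6 allele are not given in the sources used here.

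CDK6 is a cyclin D-dependent kinase that phosphorylates the retinoblastoma protein in G1 and also acts at promoters as a partner of transcription factors. PolyI:C is sensed as viral double-stranded RNA and induces type I interferon, which draws dormant HSCs into the cell cycle. Exit of stem cells from quiescence is restrained, among others, by the immediate early factors EGR1 and NR4A1, whose genes respond within minutes to growth factor, stress and cyclic AMP signals.

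All ratios below are log2 of Cdk6-/- over the wild-type pool after background correction and loess normalization, so that 1 stands for a 2-fold higher level in Cdk6-/- cells. A gene is said to be higher or lower, or to have passed the test, where its mean ratio over the 3 treated arrays differed from 0 at an adjusted p under 0.05 in limma (moderated test, Benjamini-Hochberg over all 22630 genes tested). Errors are the standard error of the mean ratio from that fit (n = 3 arrays).

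The arrays were uneven. Of 59305 spots per array, 47.0 and 51.8% were well above background in the Cdk6-/- channel of treated arrays 1 and 2, against 76.5% on array 3, and in the wild-type channel the shares were 54.4, 56.6 and 75.6%. Across the genes tested, the ratios of arrays 1 and 2 had a Pearson correlation of 0.56, while array 3 had 0.13 with array 1 and 0.22 with array 2, beside 0.22, 0.23 and 0.01 with untreated arrays 1, 2 and 3. These are correlations across genes of arrays that share 1 control pool, and genes are not independent replicates. Xist, the RNA that coats the inactive X chromosome in female cells, had ratios of 1.10, 1.87 and -3.42 on arrays 1, 2 and 3, and the Y-linked Ddx3y had -0.90, -1.15 and 0.65. Array 3 therefore stood apart from the other two in these genes as well, and the calls of the main gene lists are given with and without each treated array. Treated array 1 shared its slide with untreated arrays 1 and 3, treated array 2 shared one with untreated array 2, and treated array 3 was the only array on its slide.

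Of 22630 genes, 74 (0.327%) were higher and 148 (0.654%) lower in treated Cdk6-/- HSCs. Among the 13635 genes with a symbol, 56 (0.411%) were higher and 53 (0.389%) lower. At such shares a count of 0 in a short gene list below says little. In the untreated comparison 694 genes (3.07%) were higher and 2250 (9.94%) lower. Without array 3, 24 genes were higher and 194 lower, without array 1 the counts were 1 and 6, and without array 2 they were 5 and 16. Leaving out untreated array 1 or untreated array 3, which also set the estimate of the spread, gave 37 and 102 or 31 and 79. Median centring in place of loess shifted the median of all genes from -0.02 to 0.21 and gave 2333 higher and 238 lower genes, so the direction of a group with small ratios can turn with the scaling, which is stated beside each list where it does. Processed signals gave 9 and 24. Of the 63 genes that passed and were carried through every alternative, all kept their sign, but 57 lost their call without treated array 1, 52 without array 2 and 39 without array 3.

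Immediate early genes and stefins made up a minority of the 74 higher genes, and most of the others were in no list. Of 23 immediate early transcription factors tested (24 were listed), 9 were higher, 0 were lower and 20 lay above 0 on all 3 arrays, against 16.3% of all genes. The median ratio of the list was 0.92, with medians of 0.74, 0.90 and 1.31 on arrays 1, 2 and 3, and 0.79 without array 3. The calls rested on all 3 arrays, since 2 of these genes, Egr1 and Nr4a1, passed without array 3, and 1, Nr4a1, passed without array 1 or without array 2. Without untreated array 1 or untreated array 3 the count was 4. All genes had a median of -0.02. Relative to all genes the median was 0.94 by loess and 1.21 by median centring.

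**Figure D1:**
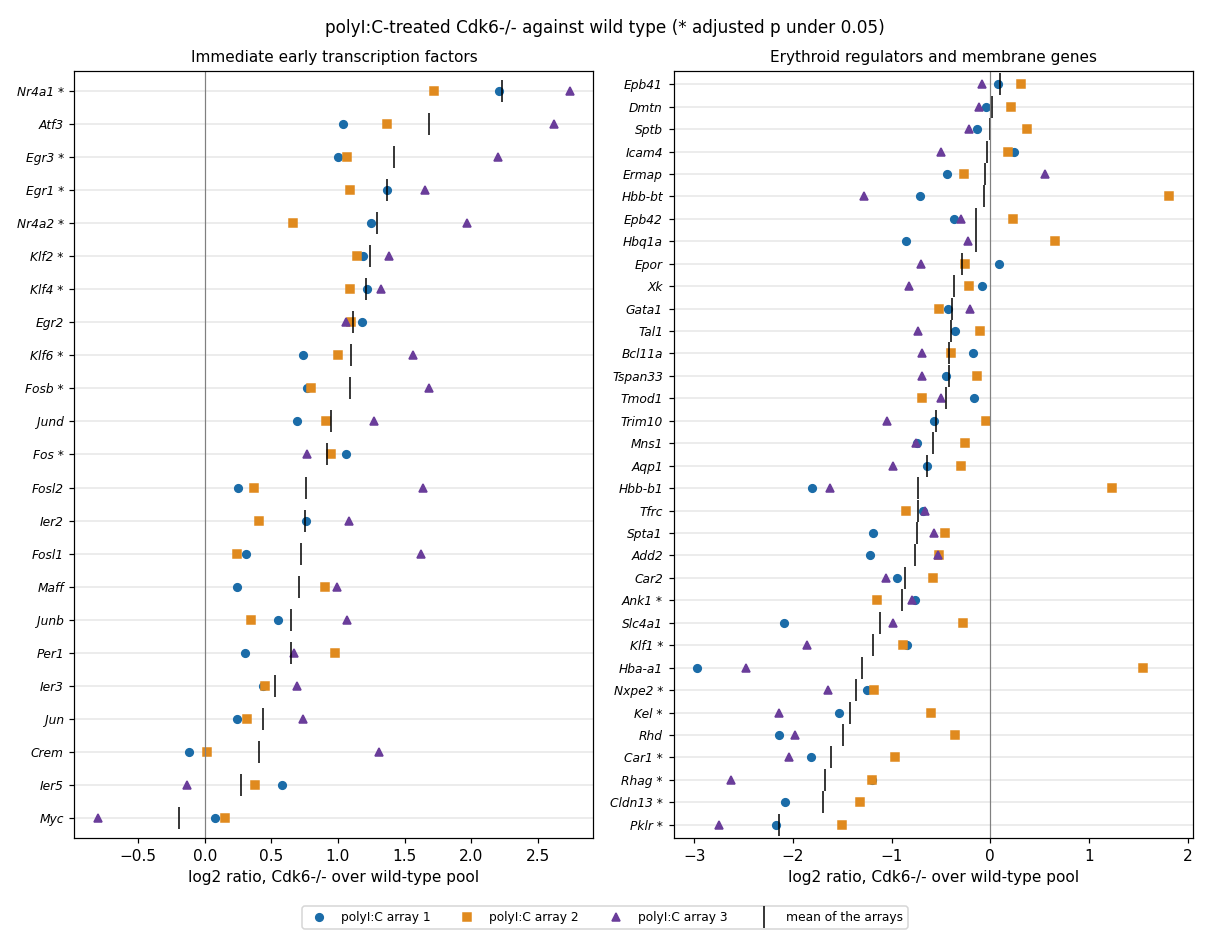
Log2 ratio of Cdk6-/- over the wild-type pool (x axis) on treated arrays 1, 2 and 3 (circles, squares, triangles) with the mean (bar) for tested genes of the immediate early list (left, all 23) and the erythroid list (right, all but 1 gene), sorted by mean, where an asterisk marks an adjusted p under 0.05. Nr4a1 lies between 1.72 and 2.74, and the globin genes Hba-a1 and Hbb-b1 lie above 0 on array 2 and below 0 on arrays 1 and 3.

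Nr4a1, an orphan nuclear receptor of the immediate early class, led the list. Its ratios were 2.21, 1.72 and 2.74 on arrays 1, 2 and 3, a mean of 2.23 ± 0.21 or 4.68-fold (limma, adjusted p = 0.00395). All 3 arrays were far above 0, and the gene passed without any single one of the 6 arrays. The related receptor Nr4a2 had 1.25, 0.66 and 1.97 (mean 1.29 ± 0.23, adjusted p = 0.0359), and its 2 tested probes had means of 1.29 and 0.83. The zinc finger factor Egr1 had 1.37, 1.09 and 1.65 (mean 1.37 ± 0.18, 2.59-fold, adjusted p = 0.0105). Egr3 had 1.0, 1.07 and 2.20 (mean 1.42 ± 0.24, adjusted p = 0.0283), with array 3 well above the others. Egr2 had 1.18, 1.10 and 1.06 and missed the threshold at an adjusted p of 0.0586, although its arrays lay close together.

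The AP-1 subunits were less uniform. Fos had 1.06, 0.95 and 0.77 (mean 0.92 ± 0.17, adjusted p = 0.0351) and Fosb 0.77, 0.80 and 1.68 (mean 1.09 ± 0.21, adjusted p = 0.0431). Jund had a mean of 0.95 and an adjusted p of 0.0586, Junb a mean of 0.65 at 0.19 and Jun a mean of 0.44 at 0.312, so no Jun gene passed. By median centring Jun had 1.43 and passed (adjusted p = 0.000568). The stress factor Atf3 had 1.04, 1.37 and 2.62 and an adjusted p of 0.0586. The Krüppel-like factors Klf2, Klf4 and Klf6, of which KLF2 and KLF4 are known for restraining proliferation, were higher. Klf2 had 1.19, 1.14 and 1.38 (mean 1.24 ± 0.24, adjusted p = 0.0477), and Klf4 had 1.22, 1.09 and 1.32 (mean 1.21 ± 0.21, adjusted p = 0.0304). Klf6 had 0.74, 1.0 and 1.56 (mean 1.10 ± 0.20, adjusted p = 0.0374). At the other end of the list, Myc had 0.08, 0.15 and -0.80 and did not pass, and its mean was -0.19 by loess and 0.46 by median centring.

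A few genes known to curb the immediate early response were higher too. Zfp36, which encodes an RNA-binding protein that destabilises AU-rich mRNAs, had 1.52, 1.11 and 1.09 (mean 1.24 ± 0.19, 2.36-fold, adjusted p = 0.0191). Btg2, an antiproliferative gene, had 0.86, 1.01 and 1.48 (mean 1.12 ± 0.20, adjusted p = 0.033). These were the 2 higher genes of 8 on the list of mRNA decay and antiproliferative genes, whose median was 0.50. Of 10 inhibitors of MAP kinase signalling tested (12 listed), Dusp5, a nuclear phosphatase of ERK, was the 1 higher gene, with 1.08, 1.28 and 1.66 (mean 1.34 ± 0.21, adjusted p = 0.0241). Dusp1, Dusp2 and Dusp6 had means of 0.69, 0.76 and 0.66 with adjusted p of 0.111, 0.0686 and 0.175. Of 22 NF-kappaB feedback and cytokine genes, 0 passed in limma's test, and their median of 0.32 went from 0.05 on array 1 to 0.59 on array 3. Tnf had the highest mean of that list, from 1.03, 0.85 and 2.14, at an adjusted p of 0.066.

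The 250 bases upstream of the start sites of some genes above are shown because most called genes with a matched promoter held a short sequence there. RefSeq promoters (build GRCm38.p6) were matched for 10 of the 12 higher genes of the immediate early, decay and feedback lists. The cyclic AMP-response core TGACG, searched on both strands, was in 8 of the 10, against 28.1% of the 10916 tested genes with a matched promoter. The whole palindrome TGACGTCA, which contains the core on each strand, was in 1 of 10 against 2.8%, and the CArG box, bound by serum response factor, was in 2 of 10 against 1.6%. A match is a description of the letters and not of a bound site. Uncalled members of these lists were not counted apart, and the comparison was not matched for base composition. The windows of 5 genes follow, written 5′ to 3′ in the direction of the gene, with cores and CArG boxes in capitals.
Nr4a1 (chr15:101266596-101266845, plus strand): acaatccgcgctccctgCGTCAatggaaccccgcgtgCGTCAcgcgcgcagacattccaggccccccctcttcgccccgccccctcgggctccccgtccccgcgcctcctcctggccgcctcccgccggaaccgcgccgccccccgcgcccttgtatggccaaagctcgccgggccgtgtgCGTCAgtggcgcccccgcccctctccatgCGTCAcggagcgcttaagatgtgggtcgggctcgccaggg
Nr4a2 (chr2:57124004-57124253, minus strand): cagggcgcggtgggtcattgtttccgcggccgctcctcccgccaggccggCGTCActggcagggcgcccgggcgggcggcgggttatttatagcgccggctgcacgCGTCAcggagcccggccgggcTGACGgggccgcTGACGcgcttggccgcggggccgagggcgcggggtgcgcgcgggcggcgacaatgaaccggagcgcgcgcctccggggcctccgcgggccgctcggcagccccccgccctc
Fos (chr12:85473640-85473889, plus strand): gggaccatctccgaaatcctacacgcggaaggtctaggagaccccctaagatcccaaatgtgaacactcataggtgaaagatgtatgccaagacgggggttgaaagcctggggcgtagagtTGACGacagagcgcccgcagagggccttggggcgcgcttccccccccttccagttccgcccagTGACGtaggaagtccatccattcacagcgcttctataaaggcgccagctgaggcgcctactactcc
Btg2 (chr1:134079156-134079405, minus strand): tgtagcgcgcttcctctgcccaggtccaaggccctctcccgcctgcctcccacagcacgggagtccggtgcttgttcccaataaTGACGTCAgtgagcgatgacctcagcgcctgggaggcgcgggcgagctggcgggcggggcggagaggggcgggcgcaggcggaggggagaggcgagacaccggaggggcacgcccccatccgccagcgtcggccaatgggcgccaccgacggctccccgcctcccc
Zfp36 (chr7:28379229-28379478, minus strand): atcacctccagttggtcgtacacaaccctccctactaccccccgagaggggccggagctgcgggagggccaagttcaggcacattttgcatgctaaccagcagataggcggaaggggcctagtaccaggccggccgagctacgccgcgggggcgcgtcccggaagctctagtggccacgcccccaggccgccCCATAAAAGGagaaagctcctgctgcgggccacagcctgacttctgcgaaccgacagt
The windows of Nr4a1 and Nr4a2 each hold 4 cores and those of Fos and Btg2 each hold 2, the pair in Btg2 overlapping in 1 palindrome, while the window of Zfp36 holds 1 CArG box and no core.

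By the brightest probe of each gene, the highest mean ratio of all, 2.40, belonged to the stefin A cluster. Its neighbouring genes encode small cytosolic inhibitors of cathepsins that are abundant in neutrophils and their precursors. Of 7 stefin genes tested (13 listed), 6 were higher, all 7 lay above 0 on all 3 arrays and the median was 1.76, or 1.88 without array 3. Without array 3 or without array 2 the calls fell to 2, Stfa1 and Stfa2, and without array 1 to 0. Stfa1 had 2.63, 1.93 and 2.65 (mean 2.40 ± 0.29, 5.29-fold, adjusted p = 0.00844). Stfa2 had 2.52, 1.90 and 2.53 (mean 2.32 ± 0.25, adjusted p = 0.00639) and Cstdc5 2.48, 1.81 and 2.23 (mean 2.17 ± 0.28, adjusted p = 0.0107). Stfa2l1, Stfa3 and Cstdc4 had means of 1.76, 1.73 and 1.51 with adjusted p of 0.042, 0.0287 and 0.0287. Array 2 was the lowest of the arrays for each of these 6 genes. Cstb, the widely expressed relative outside the cluster, had 0.49, 0.22 and 0.76 and did not pass. These genes are near-identical in places, so that a probe can catch its neighbours, and the 6 values are not 6 separate measurements.

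Other myeloid genes lay above 0 together, mostly without passing. Of 24 neutrophil granule and S100 genes tested (26 listed), 0 passed in limma at either direction, 21 lay above 0 on all 3 arrays and the median was 0.88, with array medians of 0.57, 0.53 and 1.37, and 0.56 without array 3. S100a8, a calcium-binding alarmin, had 1.0, 0.85 and 1.36 (adjusted p = 0.0872), and Chil3 had 0.82, 1.10 and 1.38 (adjusted p = 0.0506). Lcn2 had 0.84, 0.63 and 1.76, and Ngp had 0.83, 0.52 and 1.89, so in both array 3 was more than 1 unit of log2 above array 2. The receptor gene Csf3r had -0.63, -0.76 and -0.04, a mean of -0.48 by loess but 0.67 by median centring. The 10 primary granule genes, made by early myeloid progenitors, had a median of 0.74 and medians of 0.55, 0.76 and 0.66 by array, with Mpo at 0.54, 1.0 and 0.68 and Elane at 0.52, 0.96 and 0.75. Neither passed.

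**Figure D2:**
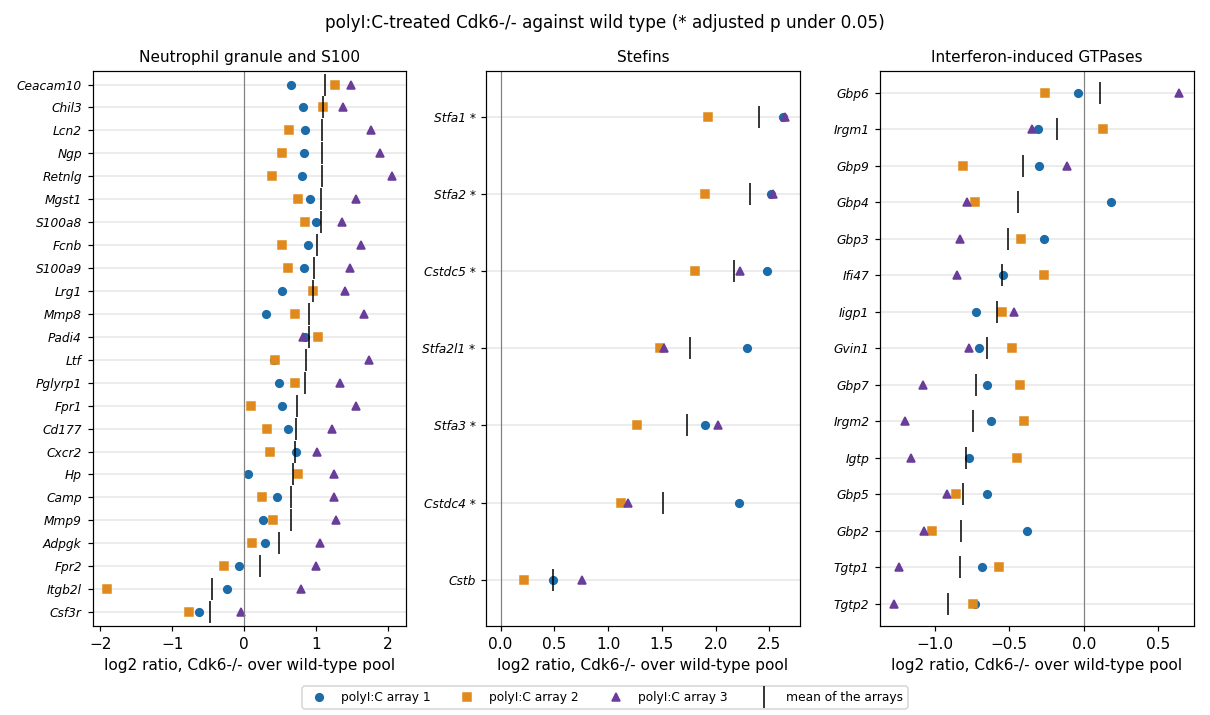
Log2 ratio of Cdk6-/- over the wild-type pool (x axis) on treated arrays 1, 2 and 3 (circles, squares, triangles) with the mean (bar) for neutrophil granule and S100 genes (left), stefins (middle) and interferon-induced GTPases (right), with an asterisk at an adjusted p under 0.05. Stfa1 lies between 1.93 and 2.65, and 12 of the 15 GTPases lie below 0 on all 3 arrays.

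Of 27 monocyte and macrophage genes tested (29 listed), 1 was higher, Marco, a scavenger receptor of macrophages, with 1.96, 1.01 and 2.27 (mean 1.75 ± 0.30, adjusted p = 0.0287), and its call was lost when any 1 of the treated arrays was left out. The list's median was 0.67, and 0.44 without array 3, whose own median was 1.22 against 0.35 and 0.34 on arrays 1 and 2. C1qa, a complement gene of macrophages, had 0.57, 0.59 and 2.18, whereas Csf1r, the receptor that defines the lineage, had -0.57, -0.26 and -0.23 at its brightest probe. Its 3 probes ranged from -0.35 to 0.79, and by median centring its mean was 0.38, so it has no settled direction. In bulk RNA a different share of a cell type and a different level per cell cannot be told apart, and the part of other cell types in these ratios was not tested. Further higher genes with the largest ratios were Asprv1, a skin-type protease (1.87, 1.05 and 2.39, mean 1.77 ± 0.25, adjusted p = 0.0163), and Cd5l, a macrophage-secreted protein (1.02, 1.39 and 2.11, mean 1.51 ± 0.24, adjusted p = 0.0231). Trib1, a pseudokinase that promotes C/EBPalpha degradation, had 1.08, 1.11 and 2.45 (mean 1.55 ± 0.28, adjusted p = 0.036), and its 2 tested probes had means of 1.55 and 0.87. Il1r2, the decoy receptor for interleukin 1, had 0.83, 1.28 and 2.01 (mean 1.38 ± 0.26, adjusted p = 0.0434). Id3, an inhibitor of basic helix-loop-helix factors, had 1.13, 1.12 and 2.01 (mean 1.42 ± 0.24, adjusted p = 0.0287). In each of these 5 genes array 3 was the highest, and without it none of the 5 passed.

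Single members of other lists passed as well. They were Ddit4, a stress-induced inhibitor of mTORC1 (mean 1.05 ± 0.19, adjusted p = 0.0369), Tnfrsf10b, the death receptor for TRAIL and a p53 target (mean 0.86 ± 0.17, adjusted p = 0.048), and Sult1a1, a sulfotransferase of the list of HSC-restricted genes (mean 1.09 ± 0.19, adjusted p = 0.0321). Sult1a1 was lowest on array 3, with 1.21, 1.36 and 0.69. Chosen after their values were seen, C5ar1, the receptor for complement C5a, had a mean of 1.10, Chil4 1.20, Dgat2, which makes triglycerides, 1.23, Rhob 1.10, Clu 0.92, and Tsc22d3, a glucocorticoid-induced gene, 0.97. A probe for 28S ribosomal RNA (Rn28s1) was higher too, with 0.69, 1.30 and 1.93 on the arrays, and its part in the other ratios was not tested.

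Some erythroid genes were among the lower ones. Of 35 erythroid regulators and membrane genes tested, all of those listed, 8 were lower, 0 were higher and 22 lay below 0 on all 3 arrays, against 21.6% of all genes. Their median was -0.64, from array medians of -0.74, -0.28 and -0.77, and -0.47 without array 3. Without array 3 the lower genes were 2, Cldn13 and Nxpe2, without array 2 they were 4, Car1, Hba-a1, Pklr and Rhd, and without array 1 there were 0. Without untreated array 1 there were 5 and without untreated array 3 there were 3. Cldn13 had no value on treated array 3, so its mean could not change when that array was left out. Relative to all genes the median was -0.62 by loess and -0.51 by median centring. Pklr, the pyruvate kinase of red cells and liver, had -2.17, -1.50 and -2.75 (mean -2.14 ± 0.29, 4.41-fold lower, adjusted p = 0.0129). Rhag, a channel of the Rhesus complex, had -1.20, -1.20 and -2.63 (mean -1.68 ± 0.28, adjusted p = 0.0282). Car1, a carbonic anhydrase of erythroid precursors, had -1.82, -0.97 and -2.04 (mean -1.61 ± 0.22, adjusted p = 0.0129). All arrays lay below 0 for these genes, and array 3 was the lowest in each.

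The factor Klf1, the main activator of erythroid genes, had -0.84, -0.88 and -1.86 (mean -1.19 ± 0.23, adjusted p = 0.042). Kel, a blood group metalloprotease, had -1.53, -0.60 and -2.14 (adjusted p = 0.049), and Ank1, which anchors band 3 to the membrane skeleton, -0.76, -1.15 and -0.79 (adjusted p = 0.0405). Cldn13, an erythroid claudin, had -2.08 and -1.32 on arrays 1 and 2 (adjusted p = 0.0232), and its spot on array 3 was left out as an outlier. Nxpe2 was not well above background in the Cdk6-/- channel on any array and was at least 2.08-fold lower (measured mean -1.36, adjusted p = 0.0117). The fold of such a gene is a bound because its dim signal was set no lower than the dimmest signal measured above background.

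The globin genes changed sign between arrays. The alpha globin gene Hba-a1 had -2.97, 1.55 and -2.48 and the beta globin gene Hbb-b1 -1.81, 1.23 and -1.62. Neither passed, and their arrays lay on both sides of 0, with array 2 the highest. The band 3 gene Slc4a1 had -2.09, -0.28 and -0.99 (adjusted p = 0.119) and Rhd -2.14, -0.36 and -1.98 (adjusted p = 0.0501). Both lay below 0 on all 3 arrays, with array 2 the nearest to 0, as in Pklr, Car1 and Kel. The early factors Gata1 and Tal1 had means of -0.39 and -0.40, the receptor gene Epor -0.29 and the transferrin receptor gene Tfrc -0.73, and none of these passed. By median centring the means of Gata1, Tal1 and Epor were 0.14, 0.29 and 0.04. The 14 heme synthesis genes had a median of -0.34 with 0 calls in either direction in limma, and the 25 megakaryocyte genes tested had a median of 0.00 with 0 calls. Relative to all genes the heme list was at -0.32 by loess and -0.26 by median centring, and the megakaryocyte list at 0.02 and 0.36.

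Promoters of 5 of the 8 lower erythroid genes were matched in RefSeq. The GATA motif AGATAA, on either strand, was in 2 of the 5, Pklr and Kel, against 8.3% of all tested genes with a promoter, and the CACCC motif CCACACCC was in 0 of 5 against 4.3%. Both windows are shown with the motif in capitals to place it beside the ratios of -2.14 and -1.42, and a window without a match says only that these letters are not in it.
Pklr (chr3:89135892-89136141, plus strand): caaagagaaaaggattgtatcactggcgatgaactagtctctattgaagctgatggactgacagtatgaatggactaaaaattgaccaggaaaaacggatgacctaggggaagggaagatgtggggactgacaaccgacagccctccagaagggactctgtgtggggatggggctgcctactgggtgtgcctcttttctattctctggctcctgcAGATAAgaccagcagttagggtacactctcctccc
Kel (chr6:41704326-41704575, minus strand): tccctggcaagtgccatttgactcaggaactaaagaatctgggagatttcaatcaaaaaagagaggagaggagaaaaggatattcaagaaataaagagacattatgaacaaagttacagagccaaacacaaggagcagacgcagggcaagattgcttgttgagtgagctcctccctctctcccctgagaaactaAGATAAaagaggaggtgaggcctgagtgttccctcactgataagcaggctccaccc

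Most lower genes were lower without treatment as well. Of the 148 lower genes, 128 were also lower in the untreated comparison, as were 9.94% of all genes tested. The 128 had a median ratio of -1.32 treated and -1.61 untreated. Both tests share 1 estimate of the spread per gene, so the calls in them are not independent. Mid1, an X-linked ubiquitin ligase gene, had -2.18, -2.25 and -1.76 treated (mean -2.06 ± 0.19, adjusted p = 0.00318) and a mean of -2.33 untreated, and it passed without any single one of the 6 arrays. Hpx, for the heme carrier hemopexin, had a mean of -1.73 treated and -2.03 untreated, and Cemip, for a hyaluronan-binding protein, -1.76 and -2.28. Prh1, Fcrlb, Pla2g4e, Iglon5, Plaat1, Tns2 and Rasl10b had treated means of -1.58, -1.53, -1.51, -1.48, -1.45, -1.44 and -1.40, with untreated means between -1.32 for Tns2 and -2.27 for Fcrlb. The 2 tested probes had treated means of -1.58 and -1.11 for Prh1 and of -2.06 and -1.46 for Mid1. A430033K04Rik also passed with -1.46, but its 3 probes ranged from -1.46 to 0.08. Of 3360 intergenic lincRNA intervals tested, 52 were lower and 7 higher, where 0.654% of all genes were lower and 0.327% higher. Of 1073 Ensembl transcripts without a symbol, 13 were lower and 3 higher. A bias of probe or dye that is alike on all arrays would stay in both comparisons, and it was not tested.

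The arrays differed in where their largest ratios lay. Of 143 lower genes with values on all arrays, array 3 was nearest to 0 in 97, whereas of the 7 lower erythroid genes with 3 values it was nearest to 0 in 0 and farthest in 6. Of the 74 higher genes, array 3 was farthest from 0 in 40. Of 67 genes that passed and had several tested probes, 37 (55.2%) had the same sign in all of them, against 58.5% of all 5701 such genes.

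Genes of DNA replication and division lay slightly below 0 by loess. Of 39 replication and S-phase genes tested (40 listed), 32 lay below 0 on all 3 arrays, with a median of -0.41 and array medians of -0.38, -0.33 and -0.61, but 0 passed. Relative to all genes the median was -0.39 by loess and -0.26 by median centring. Mcm6, a subunit of the replicative helicase, had -0.79, -0.62 and -1.18 (adjusted p = 0.0587), and Mcm7 -0.67, -0.59 and -1.02 (adjusted p = 0.0849). The 37 mitotic genes had a median of -0.27, with 23 below 0 on all 3 arrays and 0 calls, and relative to all genes it was at -0.25 by loess and -0.20 by median centring. By median centring itself the replication list had a median of -0.05 and the mitotic list 0.01, where all genes had 0.21. Among 23 G1 regulators tested (26 listed), 1 passed: E2f7, a repressor of the E2F family, had -1.62, -0.74 and -1.46 (mean -1.27 ± 0.24, adjusted p = 0.0406), and it was lower still in untreated cells at -1.93. Its 2 tested probes had treated means of -1.27 and -0.21. The call was lost when any 1 of the treated arrays, or untreated array 3, was left out.

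Cdk6 itself had ratios of -0.26, -0.44 and -1.28 (mean -0.66 ± 0.24, adjusted p = 0.258), with the Cdk6-/- level measured above background on all 3 arrays. The sources used here do not say where the probe lies relative to the deleted part, so it checks neither the labels nor the loss of the protein. Cdk4 had a mean of -0.47, Ccnd1 0.82, Ccnd2 0.15 and Ccnd3 0.02. The inhibitor genes Cdkn1a, Cdkn1b, Cdkn1c and Cdkn2c had means of 0.82, 0.21, 0.85 and -0.70. Cdkn1a differed most between arrays, with 0.33, 0.31 and 1.83, and none of these 9 genes passed. By median centring Cdk4 turned to 0.28, and Ccnd1, Ccnd2, Cdkn1a, Cdkn1b and Cdkn1c passed at means of 1.17, 0.96, 1.06, 0.82 and 1.01 (limma, adjusted p of 0.00866, 0.0161, 0.0252, 0.0193 and 0.0163).

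Interferon-induced genes were examined because polyI:C acts through interferon. Of 45 antiviral effector genes tested (49 listed), 26 lay below 0 on all 3 arrays and the median was -0.31, from array medians of -0.28, -0.14 and -0.55. This direction depended on the scaling, since relative to all genes the median was -0.29 by loess and 0.06 by median centring. The 1 gene that passed was Cmpk2, a mitochondrial nucleotide kinase induced by interferon, with -1.08, -0.77 and -0.90 (mean -0.92 ± 0.16, adjusted p = 0.0343), and it did not pass by median centring, where its mean was -0.29. Its 2 tested probes had treated means of -0.92 and -0.60. The 2 tested probes of Xaf1, also on this list, had -0.04 at the brighter and 3.24 at the other, so its direction is not settled. Ifit1 had -0.44, -0.40 and -0.86, and Isg15 -0.23, 0.29 and 0.45. Neither passed.

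The interferon-induced GTPases, which attack the vacuoles of intracellular pathogens, lay lower. Of 15 tested (16 listed), 12 lay below 0 on all 3 arrays, the median was -0.65, and relative to all genes it was -0.63 by loess and -0.43 by median centring. Tgtp2 had -0.73, -0.74 and -1.27 (adjusted p = 0.089), Gbp2 -0.38, -1.02 and -1.07 (adjusted p = 0.108) and Iigp1 -0.72, -0.55 and -0.47 (adjusted p = 0.181). In limma's test 0 of the 15 passed in either direction. The 18 genes of MHC class I and peptide loading had a median of -0.17, the 14 double-stranded RNA sensors and adaptors -0.05, and the 26 interferon receptor, JAK, STAT, IRF and SOCS genes -0.05, each with 0 calls. Relative to all genes the MHC list was at -0.15 by loess and 0.35 by median centring, the sensors at -0.03 and -0.02, and the receptor list at -0.03 and 0.09, so the first and last have no direction that holds in both scalings.

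Genes of HSC surface markers gave signal in both genotypes. Of 19 tested (22 listed), 0 passed and all 19 were above background in both channels on the 3 arrays. So were 17834 of all 22630 genes, and the gate of the sort is not given, so this does not establish the identity of the cells. Kit, the stem cell factor receptor, had -0.48, -0.46 and -0.62, Ly6a (Sca-1) -0.04, -0.19 and -0.29, and Slamf1 (CD150) 0.31, 0.23 and -0.81. Procr (EPCR) had 1.28, 0.62 and 0.17 and Mecom, a factor of long-term HSCs, 0.76, 0.05 and -1.03. The medians of this list were 0.21 and 0.20 on arrays 1 and 2 against -0.42 on array 3, so array 3 lay on the other side of 0. Relative to all genes the list was at -0.12 by loess and 0.16 by median centring, and the means of Kit, Ly6a, Slamf1 and Mecom were also below 0 by loess and above it by centring. The 29 HSC-restricted regulators showed the same order, with medians of 0.32, 0.18 and -0.22. The 52 cytosolic ribosomal protein genes had medians of 0.47, 0.39 and -0.12 and 0 calls, and as the brightest list they moved most with the scaling, to a median of 1.29 by median centring. Genes of B cells (21, median -0.00, relative to all genes 0.02 by loess and -0.18 by median centring), of T and NK cells (22, median 0.08), of eosinophils (12, median -0.26), of mast cells and basophils (8, median 0.17) and of stroma and endothelium (24, median -0.11) had 0 calls in limma's test. Of all genes 0.981% passed in either direction, so 0 calls in lists of this size says little. Of the 21 B-cell genes, 8 were above background in both channels on all 3 arrays.

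**Figure D3:**
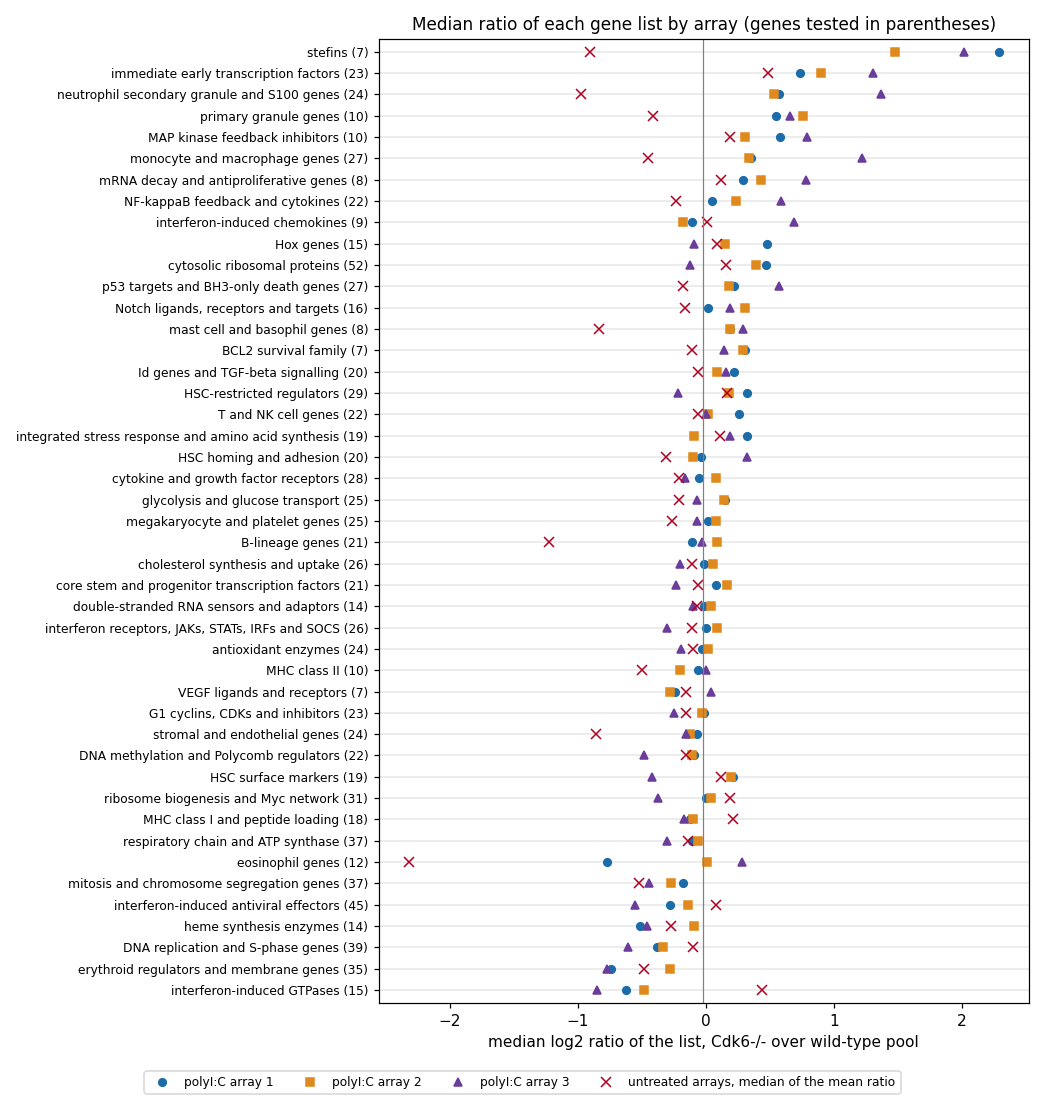
Median log2 ratio of each gene list (x axis) on treated arrays 1, 2 and 3 (circles, squares, triangles) and the median of the untreated mean ratios (crosses), with the number of genes tested in parentheses and the median of all genes as a grey line. The stefins and immediate early factors lie at the top with medians of 1.76 and 0.92 and the interferon-induced GTPases at the bottom with -0.65.

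Set beside the untreated comparison, the groups separated. The ratio after treatment minus the ratio without it passed limma's test in 363 genes (1.60%) upwards and 46 genes (0.203%) downwards. The 2 comparisons use different wild-type pools, and a dye bias that is alike on all arrays cancels in this difference. The Y-linked Ddx3y had 1.09, 0.72 and 1.40 on the untreated arrays (difference -1.54, limma, adjusted p = 0.107), and its treated minus untreated ratio was -2.14 within slide 1 and -1.87 within slide 2. Xist had untreated ratios of 1.10, 0.42 and -3.98, and the part of sex in the differences was not tested. With the slide as a fixed block 0 genes passed, while 4437 had an unadjusted p under 0.05, and without treated array 3 only 6 passed, all upwards.

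Of the immediate early factors tested, 0 of 23 passed the test of the difference. Of all genes 1.60% passed upwards and 0.203% downwards, so a count of 0 in so small a list says little. The median difference of the list was 0.59, against 0.04 for all genes. Egr1 had an untreated mean of 1.43 beside 1.37 treated (difference -0.06 ± 0.25), Nr4a2 1.86 beside 1.29, and Fosb 0.83 beside 1.09. Nr4a1 had 1.16 beside 2.23 (difference 1.07 ± 0.30, adjusted p = 0.104), and Klf2 -0.27 beside 1.24 (difference 1.51 ± 0.34, adjusted p = 0.0592). The list's untreated median was 0.49. The erythroid list had an untreated median of -0.48 and a median difference of -0.34. Of its 35 differences 0 passed, which is also near the share of all genes. Pklr had -1.10 untreated beside -2.14, Klf1 -1.16 beside -1.19, and Rhag -0.34 beside -1.68 (difference -1.34 ± 0.40, adjusted p = 0.119).

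The stefin medians lay on opposite sides of 0 in the comparisons, at -0.90 untreated and 1.76 treated. Stfa2 had untreated ratios of -1.47, -1.0 and -2.30 and treated ratios of 2.52, 1.90 and 2.53, so the groups did not overlap, and the difference was 3.91 ± 0.35 (adjusted p = 0.00393). Within slide 1 the treated array exceeded the mean of the untreated ones by 4.41 and within slide 2 by 2.90. Of the 7 stefins, 5 differed upwards, and Stfa3 was the exception among the 6 higher ones, with a difference of 0.81 (adjusted p = 0.368). Marco had an untreated mean of -1.40 beside 1.75 (difference 3.14, adjusted p = 0.0119). Of the 24 neutrophil granule and S100 genes, 15 differed upwards, with an untreated median of -0.97 beside 0.88. These medians lay on opposite sides of 0, which a ratio cannot attribute to either genotype. Of 12 eosinophil genes, 7 differed upwards, from an untreated median of -2.32 to -0.26. Prg2, the eosinophil major basic protein, had -0.82, 1.15 and 1.48 treated and -2.42 untreated (difference 3.02, adjusted p = 0.0499), with a within-slide difference of 0.98 on slide 1 and 4.80 on slide 2. Gpx3, a secreted glutathione peroxidase, had 0.52, 0.63 and 0.74 treated and -2.24 untreated (difference 2.87, adjusted p = 0.00726).

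**Figure D4:**
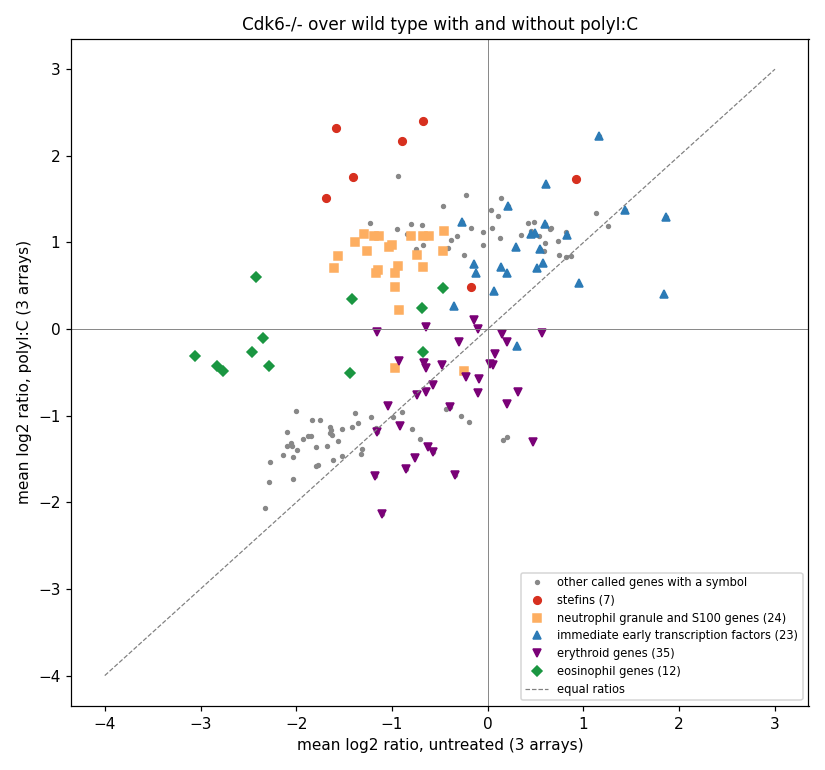
Mean log2 ratio of Cdk6-/- over wild type on the 3 treated arrays (y axis) against that on the 3 untreated arrays (x axis) for 5 gene lists and for other genes with a symbol that passed in the treated comparison, with a dashed line at equal ratios. Stfa2 lies at -1.59 untreated and 2.32 treated, and Egr1 at 1.43 and 1.37.

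The differences in the downward direction were smaller. Herc6, an interferon-induced ubiquitin ligase gene, had -0.90, -0.62 and -0.58 treated beside 1.15 untreated (difference -1.86, adjusted p = 0.0171). Ifih1, the gene of the double-stranded RNA sensor MDA5, had -0.58 beside 0.68 (difference -1.26, adjusted p = 0.0388), and Iigp1 -0.58 beside 0.74 (difference -1.32, adjusted p = 0.0318). Both the treated and the untreated ratios of these 3 genes had 1 sign on all arrays of their group by loess, while by median centring the treated means of Ifih1 and Iigp1 were 0.03 and 0.23. The largest downward difference was in Adgra3, an adhesion receptor gene (-0.39 beside 1.60, difference -1.99, adjusted p = 0.019), followed by Slf2, a genome stability factor (-0.60 beside 1.31, difference -1.91). Tapbpl, Med14 and Ehd3 had differences of -1.74, -1.63 and -1.55, and the 3 probes of Med14 had treated ratios from -0.58 to 0.22. Hoxc4 also passed, but it was not well above background in the Cdk6-/- channel on any treated array, so the size of its difference is not settled. Atp1b2, a sodium pump subunit, passed in both tests, with treated ratios of -1.16, -0.95 and -1.65 (mean -1.25, adjusted p = 0.0325) and a difference of -1.45 (adjusted p = 0.0493).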

How the data were processed

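Each array compared 1 Cdk6-/- HSC sample (Cy5) with a wild-type pool (Cy3) on Agilent two-colour arrays. Per the labels' protocols, RNA (integrity numbers 5,3 to 8,9) was amplified by whole transcriptome amplification and coupled to platinum-linked dyes. Per the file headers, Feature Extraction 11.5.1.1 read the scans on mouse annotation mm9. The deposited scanner files hold median spot and background intensity and processed signals, also an intensity. They also hold a deposited log10 ratio, used for direction, and deposited flags (other). The value table deposited by the authors is in log2 and equals the processed ratio within 2.5e-06.

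Median signals were corrected with normexp (offset 50) and loess-normalized in limma 3.58.1 (R 4.3.3). Flagged spots (0.657%) and control spots were left out. Of 55681 probes, 23879 were not tested, because neither channel was well above background on all arrays of either treatment. The brightest tested probe stood for a gene. One fit over all 6 arrays (4 residual degrees of freedom) gave mean ratios per treatment and their difference, and p-values measure the spread between these samples. Symbols came from RefSeq (GRCm38.p6), where 28026 of 29796 accessions matched. The fit was tested on simulated data. Genes named are the 15 most changed in each direction, list members, G1 genes, genes passing without each array, and the 8 largest differences in each direction. The lists and rules were chosen with earlier results of these data known. A few genes are not reported here. The number of arrays limits the precision.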

Additional observations from a re-analysis of the deposited data

Results flagged for a closer look

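The genes below had a ratio of Cdk6-/- to wild type that differed between treated and untreated cells by limma's test of the difference. All values are the treated minus the untreated log2 ratio, and the cause was not tested. Among stefins and macrophage genes the differences were 3.91 for Stfa2, 3.20 for Cstdc4, 3.17 for Stfa2l1, 3.08 for Stfa1, 3.07 for Cstdc5 and 3.14 for Marco. Among eosinophil and B-cell genes they were 3.02 for Prg2, 2.75 for Ear1 and 2.74 for Siglecg, whose treated ratios did not pass. Among neutrophil genes they were 2.39 for Chil3, 2.31 for Cxcr2, 2.21 for S100a8 and 1.88 for Ngp. Other upward differences were 2.87 for Gpx3, 2.71 for Asprv1, 2.47 for Dgat2, 1.94 for C5ar1, 1.92 for Rhob, 1.89 for Id3, 1.89 for Chil4, 1.67 for Clu and 1.65 for Tsc22d3.

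Downward differences were -1.99 for Adgra3, -1.91 for Slf2, -1.86 for Herc6, -1.74 for Tapbpl, -1.63 for Med14, -1.60 (measured, with a dim treated signal) for Hoxc4, -1.55 for Ehd3, -1.45 for Atp1b2, -1.44 for Slc38a5, -1.32 for Iigp1, -1.26 for Ifih1 and -1.26 for Spred1. A transcript without a symbol that was lower in both treatments had -1.73. Groups of 3 arrays are too small for an outlier test.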

How the results depend on the processing

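No paired analysis was possible because the replicate numbers were given in accession order and link no samples; the slide, which treated arrays 1 and 2 share with untreated arrays, was fitted as a block instead. For the treated ratio, 222 genes passed, and the count was 2571 by median centring, 33 with processed signals and with the deposited value table, 132 with an offset of 16, 94 without the filter on dim probes, 5674 with array weights, 87 in the 3 treated arrays alone and 451 at a threshold of 0.10. Leaving out 1 array gave 7 to 219. Without both arrays numbered 3, a setting chosen after seeing the data, 0 passed in limma, while 3517 had an unadjusted p under 0.05. For the difference between treatments, 409 genes passed, and the count was 241 by median centring, 176 with processed signals, 253 without the filter, 233 with both channels above background and 2562 with array weights. It was 0 with the slide as a fixed block (4437 at an unadjusted p under 0.05), 0 without both arrays numbered 3 (4554) and 6 to 375 without 1 array. The array weights gave treated array 3 a weight of 0.26 and array 2 one of 5.29. No called gene named in the text reversed. Nr4a1 and Mid1 lost their call only without both arrays numbered 3. The cause of these changes was not tested, beyond the smaller number of samples where arrays were left out.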
